A study of Mus musculus with 16 samples.

Results

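Periostin (Postn), tenascin-C (Tnc), SPARC (Sparc), fibronectin (Fn1) and the CCN proteins CCN1 and CCN2 (Ccn1, Ccn2) were followed in bulk RNA of the mouse suprarenal aorta. These 6 genes were chosen by name from the 29695 genes of the count table, with earlier results of these data known. Shares over all genes are therefore printed beside counts of the 6 as a scale and do not test them as a set. All 6 were among the 15984 genes that passed the filter on low counts. The vessels came from male Vamp8-/- mice (KO) and male C57BL/6 wild-type mice (WT), each infused for 5 days with angiotensin II (AngII, 1000 ng/kg/min) or with saline from an osmotic minipump under the skin. This gave 4 groups of 4 libraries, KO AngII, KO saline, WT AngII and WT saline, which the labels call biological replicates. Vessels with bleeding inside the wall or visible disease had been left out by the submitters, so the AngII groups describe aortae without such lesions. The design addresses how these genes respond to AngII and whether the response or the starting level differs in mice lacking Vamp8, a SNARE protein of endosomal and secretory vesicles.

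The 6 genes encode secreted proteins that sit in the extracellular matrix and act on cells as well as on its structure. Most of them belong to the matricellular class, proteins that are scarce in quiescent adult tissue and are made again during repair, remodelling and mechanical load, whereas fibronectin is also a structural fibril on which collagen and other matrix proteins are laid down. Periostin, tenascin-C, fibronectin and the CCN proteins bind integrins on smooth muscle cells and fibroblasts, and transforming growth factor beta (TGF-beta), the coactivators YAP and TAZ acting with TEAD factors, and serum response factor are known to induce several of them. In the vessel wall AngII is known to raise matrix production by smooth muscle cells and adventitial fibroblasts.

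Levels are given as CPM (counts scaled to a common library total) after scaling by the trimmed mean of M values, unless stated otherwise. Total counts per library ran from 13284804 to 21643548, and the 6 genes together took between 0.299% and 2.82% of them. Vamp8 itself was at 14.1 to 26.7 CPM in KO AngII and 24.9 to 53.3 CPM in KO saline, against 52.3 to 60.9 CPM in WT AngII and 45.9 to 57.2 CPM in WT saline. The library labelled KO saline replicate 1 held the highest KO value, inside the range of WT saline, after scaling by a factor of 0.716, the lowest of all 16 libraries. As CPM without that scaling it held 38.2, against 16.4 to 27.8 CPM in the other KO libraries and 51.0 to 63.4 CPM in the WT libraries, so it was higher than every other KO library on both scales and below every WT library on the unscaled one. KO AngII replicate 4 stood apart through nerve and chromaffin transcripts, with a summed level of 3386 CPM against at most 171 CPM in any KO saline library. KO saline replicate 3 stood apart through skeletal muscle transcripts, at 616 CPM against 3.15 to 23.6 CPM in every other library. Defining smooth muscle markers were present in every library, at summed levels of 5624 to 16297 CPM in KO AngII, 8497 to 11410 CPM in KO saline, 11672 to 17208 CPM in WT AngII and 7771 to 21040 CPM in WT saline. In bulk tissue, fewer cells of a type and less RNA per cell cannot be told apart. The count table itself differed by genotype, since 2725 genes had no read in any of the 8 WT libraries and were the same 2725 that carry no symbol, while 1401 genes had no read in any of the 8 KO libraries. A difference between genotypes in how reads were counted cannot be told apart from genotype, which limits every KO against WT comparison below.

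Between genes, levels were compared per kilobase of exon (CPM divided by the length of the merged exons in GENCODE M21). Merged exons, from 2.02 kb for Ccn1 to 11.7 kb for Fn1, span all annotated transcripts of a gene. They can be longer than the RNA present in the tissue. No other length was tried, so the order of genes given here holds for this length only. Sparc had the highest mean in every group, 864 ± 118 CPM per kb in KO AngII, 634 ± 135 in KO saline, 2643 ± 595 in WT AngII and 1460 ± 378 in WT saline (mean ± SD, n = 4 each, as are all errors on levels). Ccn2 came next, with 638 ± 694 CPM per kb in KO AngII, 122 ± 32.0 in KO saline, 713 ± 474 in WT AngII and 298 ± 95.5 in WT saline. Its KO AngII libraries spanned 92.8 to 1552 CPM per kb and so ran both below and above the Sparc range of that group. Postn, Fn1 and Ccn1 followed, at 239 ± 85.3, 201 ± 65.4 and 223 ± 232 CPM per kb in KO AngII and 79.0 ± 24.4, 69.0 ± 14.7 and 70.6 ± 35.04 in KO saline, where their means differed by less than the SD of Postn. They were at 495 ± 212, 348 ± 121 and 267 ± 361 CPM per kb in WT AngII and 185 ± 54.1, 178 ± 68.7 and 122 ± 48.4 in WT saline, where the mean of Ccn1 lay below that of Postn by more than the SD of Postn in both groups. In WT AngII that gap was smaller than the SD of Ccn1, whose libraries ran from 77.7 to 809 CPM per kb. Tnc was the lowest in all 4 groups, at 19.3 ± 9.002 CPM per kb in KO AngII, 5.87 ± 1.42 in KO saline, 36.6 ± 15.3 in WT AngII and 18.1 ± 6.72 in WT saline.

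**Figure D1:**
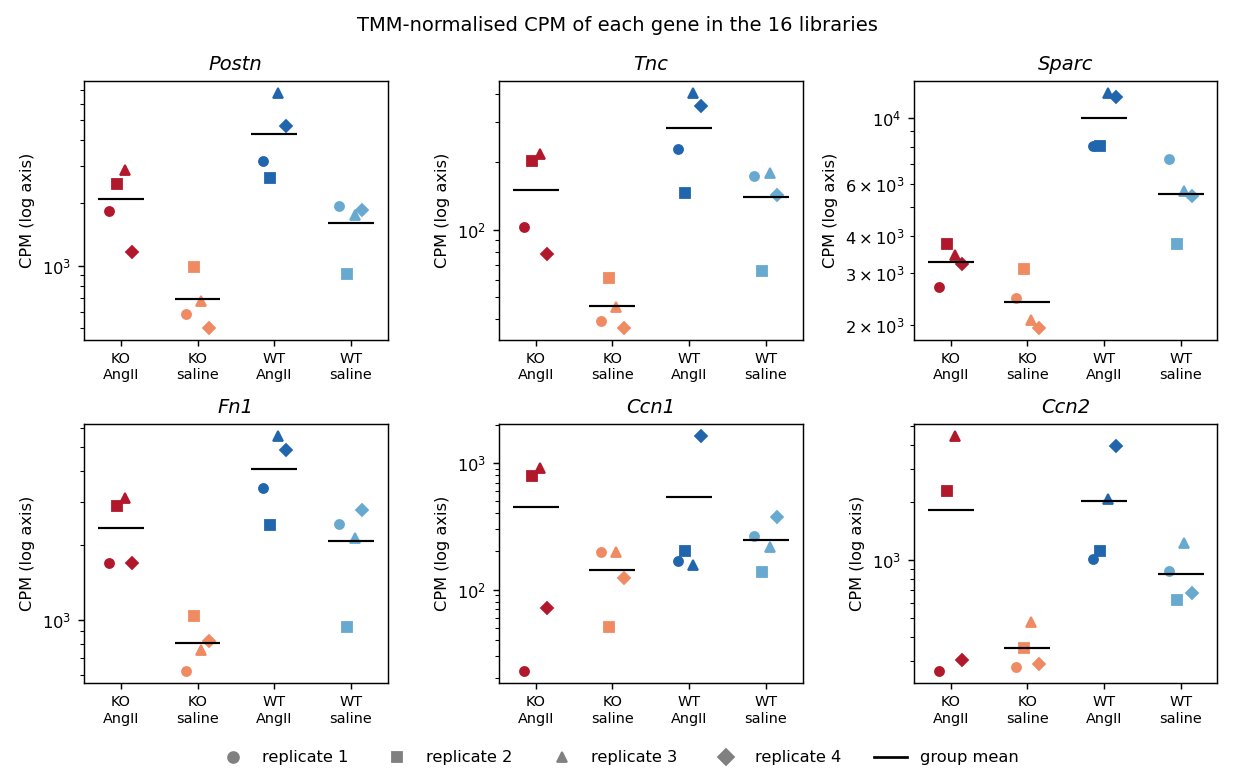
CPM on a log axis (vertical) of each gene in the 4 groups (horizontal), with 1 point per library, shaped by replicate number, and a line at the group mean. Sparc in KO AngII (2693 to 3744 CPM) lies wholly below WT AngII (8061 to 12147 CPM), whereas Ccn1 in KO AngII is split between 22.7 and 919 CPM.

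Postn encodes periostin, a fibroblast and smooth muscle product that binds integrins and helps to cross-link collagen. It was at 1835, 2457, 2866 and 1167 CPM in KO AngII replicates 1 to 4, against 583, 987, 676 and 502 CPM in KO saline. In WT AngII it was at 3169, 2635, 6759 and 4666 CPM, against 1929, 912, 1752 and 1845 CPM in WT saline. Within each genotype every AngII library was above every saline library, and the KO AngII range overlapped that of WT saline. The KO saline values were below WT saline except for KO saline replicate 2, which passed WT saline replicate 2. The promoter of the downstream start site listed for Postn is shown because its letters include a TATA box and because the average AngII effect on Postn was called under every alternative tried. It is the 250 bases before the start site, plus strand, chr3:54360857-54361106 (RefSeq, GRCm38.p6), with TATAAA, 26 bases before the start, in capitals.
Postn promoter: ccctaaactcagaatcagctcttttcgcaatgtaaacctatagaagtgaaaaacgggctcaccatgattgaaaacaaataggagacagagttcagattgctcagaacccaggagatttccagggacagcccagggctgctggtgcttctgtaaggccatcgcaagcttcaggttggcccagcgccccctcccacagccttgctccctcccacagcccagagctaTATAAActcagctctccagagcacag

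Tnc encodes tenascin-C, a large hexameric glycoprotein that modulates adhesion to fibronectin and is induced in injured arteries. Its levels were 103, 202, 218 and 78.0 CPM in KO AngII, against 39.1, 61.2, 45.5 and 36.6 CPM in KO saline. The WT AngII libraries held 230, 146, 407 and 356 CPM, against 173, 65.5, 179 and 143 CPM in WT saline. The KO groups did not overlap, while WT AngII replicate 2 lay among the WT saline values. KO saline was below WT saline in every library, although WT saline replicate 2 was only slightly above KO saline replicate 2.

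Fn1 encodes fibronectin, the fibril-forming ligand of integrin alpha 5 beta 1. It was at 1691, 2895, 3124 and 1703 CPM in KO AngII, against 621, 1032, 753 and 820 CPM in KO saline. In WT AngII it was at 3430, 2415, 5549 and 4863 CPM, against 2449, 935, 2144 and 2773 CPM in WT saline. As for Tnc, the KO groups were apart and the WT groups overlapped, through WT AngII replicate 2. WT saline replicate 2 was the lowest of its group for all 6 genes, and it also had the lowest smooth muscle sum of that group, 7771 CPM, and the highest adipocyte sum, 10983 CPM against 2231 to 7288 CPM in the other WT saline libraries. The part of cell composition in these values was not tested.

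Sparc encodes SPARC, also called osteonectin, a collagen-binding protein that takes part in the handling of secreted procollagen. Its levels were 2693, 3744, 3453 and 3204 CPM in KO AngII, against 2467, 3093, 2086 and 1958 CPM in KO saline. In WT it was at 8065, 8061, 12147 and 11772 CPM under AngII, against 7252, 3752, 5683 and 5436 CPM under saline. Sparc alone among the genes followed had every KO library, under either infusion, below every WT library. The margin was narrow, with 3744 CPM in KO AngII replicate 2 against 3752 CPM in WT saline replicate 2. The share of all genes split in this way was not computed, so the split has no scale. KO AngII and KO saline overlapped, and WT AngII and WT saline did not. Sparc was also the steadiest gene, with a coefficient of variation of 13.6% in KO AngII, 21.2% in KO saline, 22.5% in WT AngII and 25.9% in WT saline.

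Ccn1 encodes an integrin- and heparin-binding protein that is induced rapidly by serum, stretch and YAP. In KO AngII it was at 22.7, 784, 919 and 72.0 CPM, against 197, 50.2, 199 and 124 CPM in KO saline. In WT AngII it was at 169, 201, 157 and 1633 CPM, against 263, 139, 215 and 372 CPM in WT saline. The 3 libraries KO AngII 2, KO AngII 3 and WT AngII 4 lay above all others, while KO AngII 1 held the lowest value and KO AngII 4 lay inside the KO saline range, so that both AngII groups surrounded or overlapped their saline groups. The coefficient of variation was 104% in KO AngII and 49.6% in KO saline, and 135% in WT AngII and 39.5% in WT saline. The Ccn1 promoter is shown because YAP acts through TEAD factors and the window holds a TEAD motif. It is the 250 bases before the start site, minus strand, chr3:145649986-145650235 (RefSeq, GRCm38.p6), with the TEAD motif GGAATG, read here as its complement 103 bases before the start, and TATAAA, 25 bases before the start, in capitals.
Ccn1 promoter: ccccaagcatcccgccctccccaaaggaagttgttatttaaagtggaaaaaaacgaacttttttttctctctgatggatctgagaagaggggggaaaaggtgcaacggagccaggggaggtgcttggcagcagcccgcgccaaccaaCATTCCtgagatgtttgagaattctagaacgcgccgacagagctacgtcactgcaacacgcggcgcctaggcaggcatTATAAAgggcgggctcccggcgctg

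The RefSeq promoter table held 6 start sites for 4 of the genes, Postn, Tnc, Sparc and Ccn1, each a window of 250 bases before to 50 after the start, and motifs were searched on both strands. GGAATG was found in the Ccn1 window and in none of the other 5, and 14.7% of all 32851 promoters held it. TATAAA was found in the downstream Postn window, both Tnc windows and the Ccn1 window, against 13.6% of all promoters. The Tnc windows overlap, and their matches, 126 and 205 bases before the start sites, are the same genomic site. Neither the AP-1 motif TGANTCA (7.81% of promoters) nor a CArG box, the serum response factor motif (1.63%), was in any of the 6 windows. A match describes letters and not a bound site.

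Ccn2 encodes connective tissue growth factor, a mediator of TGF-beta responses in fibroblasts. It was at 265, 2300 (to the nearest whole number), 4439 and 302 CPM in KO AngII, against 279, 351, 478 and 289 CPM in KO saline. In WT AngII it was at 1011, 1123, 2085 and 3940 CPM, against 878, 624, 1227 and 678 CPM in WT saline. KO AngII was split into a pair of high libraries, replicates 2 and 3, and a pair at the level of KO saline, and the WT groups overlapped. All 4 KO saline libraries were below all 4 WT saline libraries.

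AngII against saline was tested by edgeR's quasi-likelihood test over all 15984 genes, with Benjamini-Hochberg adjustment and a threshold of 0.05 for a call. In KO the log2 fold change was 1.60 ± 0.36 for Postn (SE), 1.72 ± 0.40 for Tnc and 1.55 ± 0.36 for Fn1, each with an adjusted p of 0.106. It was 2.39 ± 0.74 for Ccn2 (adjusted p = 0.15), 1.66 ± 0.98 for Ccn1 (0.358) and 0.45 ± 0.26 for Sparc (0.343). Without KO AngII replicate 3 it was 1.43 for Ccn2 and 1.01 for Ccn1. None of the 6 was therefore called, where 0.0501% of all genes were, although 4 had an unadjusted p under 0.05, as did 19.2% of all genes. DESeq2 and limma voom each called Postn, Tnc, Fn1 and Ccn2 higher, but they called 483 and 300 of all genes higher, against 0 in the main test. The KO groups were apart for Postn, Tnc and Fn1, against 4.25% of all genes with AngII higher. They were also apart in the mitochondrial share of counts, 10.1% to 24.3% in KO AngII against 27.0% to 32.8% in KO saline. Of 8 brown adipocyte markers 0 had a log2 fold change above 0 in KO (median -0.88, summed levels 592 to 3234 CPM in KO AngII against 1682 to 7578 CPM in KO saline), and of 8 smooth muscle markers 8 had (median 0.36), with no call in either list. The part of these in the KO values was not tested. In WT the log2 fold changes were 1.42 ± 0.36 for Postn (adjusted p = 0.135), 1.02 ± 0.39 for Tnc (0.415), 0.97 ± 0.35 for Fn1 (0.366) and 0.86 ± 0.26 for Sparc (0.24). Ccn1 was at 1.13 ± 0.97 (0.868) and Ccn2 at 1.26 ± 0.71 (0.67). No member was called in WT either, where 0.444% of all genes were, and 4 of the 6 had an unadjusted p under 0.05 against 8.8% of all genes. The WT groups were apart for Postn and Sparc, against 3.67% of all genes with AngII higher. DESeq2 called these same 2 genes in WT, where it called 222 of all genes higher against 70 in the main test. By voom none of the 6 was called. The Ccn1 value rested on WT AngII replicate 4, without which it was -0.49.

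Averaged over both genotypes, Postn, Tnc and Fn1 rose under AngII. The average effect was 1.51 ± 0.26 on the log2 scale for Postn, 2.85-fold (adjusted p = 0.0131), 1.37 ± 0.28 for Tnc, 2.59-fold (0.0289), and 1.26 ± 0.25 for Fn1, 2.39-fold (0.0251). These are 3 of 6 genes, against 0.857% of all genes called higher. An unadjusted p under 0.05 was reached by 5 of the 6, all but Ccn1, against 15.1% of all genes. Ccn2 at 1.82 ± 0.51 (0.109), Ccn1 at 1.39 ± 0.69 (0.36) and Sparc at 0.65 ± 0.18 (0.107) were not called, and their 95% intervals were 0.73 to 2.92, -0.08 to 2.86 and 0.27 to 1.04. The median over the 6 was 1.38, against 0.0015 over all genes. Postn alone kept its call without each single library, with adjusted p up to 0.0389. The count fell to 1, Postn, without KO AngII replicate 2 or 3, the library labelled KO saline replicate 1, KO saline replicate 3 or 4, WT AngII replicate 3 or 4, or WT saline replicate 3, and the adjusted p reached 0.0788 for Tnc and 0.0693 for Fn1, both without WT AngII replicate 3. Tnc also lost its call without WT saline replicate 1 or 4. Over the fits that left out 1 library, 42 to 252 of all genes were called either way, against 166 in the main test. With DESeq2 the count of called members was 5, since Sparc and Ccn2 passed as well. DESeq2 called 463 of all genes higher there, against 137 in the main test. Dividing-cell markers moved in the same direction, with 8 of 8 called higher in the average effect, at summed levels of 21.2 to 76.7 CPM in KO AngII, 11.9 to 26.7 CPM in KO saline, 68.9 to 153 CPM in WT AngII and 12.3 to 18.5 CPM in WT saline. None of 8 smooth muscle and none of 8 fibroblast markers was called in the average effect. Their part in the AngII differences was not tested.

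**Figure D2:**
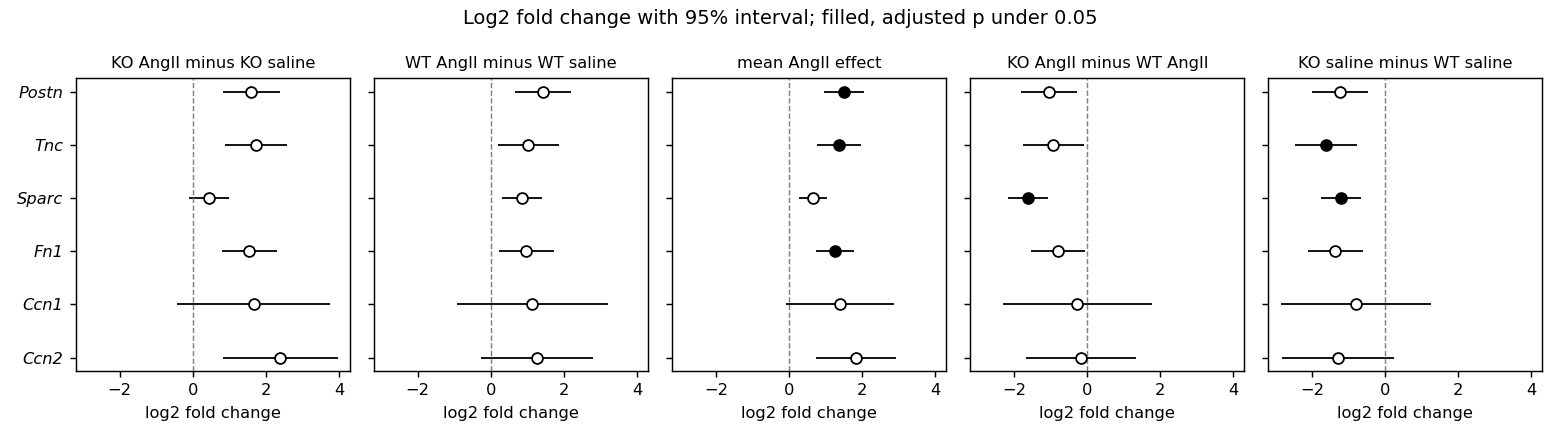
Log2 fold change (horizontal) of each gene (vertical) in 5 comparisons, with the 95% interval; filled points passed an adjusted p of 0.05. The mean AngII effect is filled for Postn, Tnc and Fn1, and the intervals of Ccn1 and Ccn2 are the widest in every panel.

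The AngII effect did not differ detectably between genotypes for any of the 6. The interaction, the KO effect minus the WT effect, was 0.18 for Postn (95% interval -0.89 to 1.25), 0.70 for Tnc (-0.47 to 1.87), 0.58 for Fn1 (-0.47 to 1.62), -0.41 for Sparc (-1.18 to 0.36), 0.53 for Ccn1 (-2.36 to 3.42) and 1.13 for Ccn2 (-0.996 to 3.25). Adjusted p ran from 0.601 to 0.899, none was below 0.05 before adjustment (11.2% of all genes were), and DESeq2 and voom called none. In all, 0.0188% of genes were called. For each gene the interval was wider than the average AngII effect was large, and the widest were those of the CCN genes. The Ccn2 value was 0.16 without KO AngII replicate 3, and the Ccn1 value was 2.15 without WT AngII replicate 4.

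Between genotypes, all 6 genes had log2 fold changes below 0 in KO against WT under both infusions, where 54.9% of all genes were above 0 under AngII and 54.4% under saline. Under AngII the direction of the CCN genes was not stable: of 25 alternatives, 6 turned Ccn1 above 0, up to 1.36 without WT AngII replicate 4, and 5 turned Ccn2 above 0, up to 0.38 without the same library. Sparc gave the smallest p-value of the 6 in each. Under AngII, Sparc fell by 1.61 ± 0.26 on the log2 scale in KO against WT (adjusted p = 0.00525), which is 3.06-fold lower. It was the 1 of 6 genes called, against 1.03% of all genes called lower. The groups were apart for Sparc and for no other of the 6, against 4.8% of all genes with KO lower. The log2 fold changes of the others were -1.05 for Postn (adjusted p = 0.126), -0.92 for Tnc (0.22), -0.79 for Fn1 (0.246), -0.26 for Ccn1 (0.942) and -0.16 for Ccn2 (0.954). The Sparc call held without each single library in turn, with adjusted p from 0.00243 to 0.0227, but not when only these 8 libraries were fitted (0.0618). Among the cell type markers under AngII, 1 of 8 fibroblast markers was called lower in KO. Called higher were 1 of 8 adipocyte and 1 of 7 nerve and chromaffin markers. Log2 fold changes were above 0 for 1 of 8 fibroblast (median -0.71) and 2 of 8 smooth muscle markers (-0.12). They were above 0 for 7 of 8 endothelial (0.45), all 8 adipocyte (0.47), all 8 Schwann cell (2.32) and all 7 nerve and chromaffin markers (8.54). KO AngII replicate 4 held by far the highest Schwann cell and nerve sums, 1473 and 3386 CPM. The other KO AngII libraries held 253 to 482 and 43.3 to 241 CPM, against 255 to 305 and 52.6 to 93.6 CPM in WT AngII. All 8 macrophage markers (median -0.99) and all 8 dividing-cell markers (median -1.29) had log2 fold changes below 0, with none called. The part of these cell types in the Sparc difference was not tested.

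Under saline, Tnc fell by 1.62 ± 0.40 in KO against WT (adjusted p = 0.0415), 3.08-fold lower, and Sparc fell by 1.204 ± 0.26 (0.0247), 2.30-fold lower. These 2 of 6 compare with 1.78% of all genes called lower. Fn1 at -1.36 ± 0.35 (0.0509) and Postn at -1.23 ± 0.36 (0.0759) were close to the threshold, whereas Ccn2 at -1.29 ± 0.71 (0.297) and Ccn1 at -0.79 ± 0.96 (0.639) were not. The saline groups were apart for Tnc, Sparc and Ccn2, against 5.94% of all genes with KO lower. These calls are fragile: leaving out 1 library gave between 0 and 4 called members. In the same fits 105 to 1744 of all genes were called either way, against 481 in the main test. The count of called members was 0 without the library labelled KO saline replicate 1, KO saline replicate 3 or 4, or WT saline replicate 1, 3 or 4. It was 1, Sparc, without KO AngII replicate 2, KO saline replicate 2, WT AngII replicate 1 or 4, or the library labelled KO saline replicate 1 together with KO AngII replicate 4, and 4, with Postn and Fn1 added, without KO AngII replicate 4 or WT saline replicate 2. DESeq2 and voom also called these 4, but they called 883 and 1663 of all genes lower, against 284 in the main test. Other measures moved with the same groups: the mitochondrial share of counts was 27.0% to 32.8% in KO saline against 8.33% to 17.7% in WT saline, and the summed adipocyte markers were 6405 to 13536 CPM in KO saline against 2231 to 10983 CPM in WT saline. Of 8 smooth muscle markers 1 had a log2 fold change above 0 (median -0.91), and of 8 adipocyte markers 8 had (median 0.70), with none called in either list. Of 8 fibroblast markers 2 were above 0 (median -0.28) and 1 was called lower. With mitochondrial genes removed before scaling, Fn1 was called as well. The part of the other cell types in the KO against WT differences was not tested.

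Postn, Tnc, Fn1 and Sparc varied together from vessel to vessel. With group means removed from log2 CPM, 15 pairs were tested over 16 libraries by permutation within groups (100000 permutations, two-sided, adjusted over the 15 pairs). Postn and Tnc had a Pearson r of 0.95 (adjusted permutation p = 0.00075) and a Spearman rho of 0.93 (0.00135). Tnc and Fn1 had an r of 0.92 (0.0037; rho 0.88, 0.00288), and Postn and Fn1 an r of 0.89 (0.00202; rho 0.89, 0.0028). Within KO libraries the 3 values were 0.95, 0.91 and 0.81, and within WT libraries 0.95, 0.94 and 0.95. Without the 2 libraries farthest from the median of the gene first named, they were 0.92, 0.87 and 0.86. Sparc went with these genes less closely, at r = 0.79 with Postn, 0.80 with Tnc and 0.79 with Fn1 (adjusted p up to 0.00978), with rho of 0.86, 0.84 and 0.77 (up to 0.0103), and whether these r differ from those among Postn, Tnc and Fn1 was not tested. Without WT saline replicate 2, Sparc and Fn1 no longer passed (r = 0.68, adjusted p = 0.0527).

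The pair of Ccn1 and Ccn2 passed the test by Pearson r and missed the threshold by rank. Their r was 0.85 (adjusted permutation p = 0.0293) and their rho 0.72 (0.076), with 0.79 left without KO AngII replicate 1 and WT AngII replicate 4. Leaving out single libraries kept r between 0.79 and 0.89, but the adjusted p was above 0.05 without WT saline replicate 2, WT AngII replicate 1, 2 or 4, or any of the 4 KO AngII libraries. It was highest, 0.18, without WT AngII replicate 4. Ccn1 had r of 0.35 with Postn, 0.52 with Tnc, 0.34 with Sparc and 0.47 with Fn1, none of which passed. Ccn2 was in between, with r of 0.64 with Postn, 0.75 with Tnc, 0.61 with Fn1 and 0.47 with Sparc, and adjusted p from 0.0182 to 0.0293; rho was 0.68, 0.84, 0.67 and 0.66 (0.0146 to 0.0414). The r with Tnc kept its call in each alternative tried, and each of the other 3 lost it without WT saline replicate 2 or WT AngII replicate 1 or 2, among others, with adjusted p of at most 0.0888. KO AngII replicate 4, the lowest of its group for Postn and Tnc, also had the lowest smooth muscle sum of all libraries, 5624 CPM, whose part in these correlations was not tested.

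**Figure D3:**
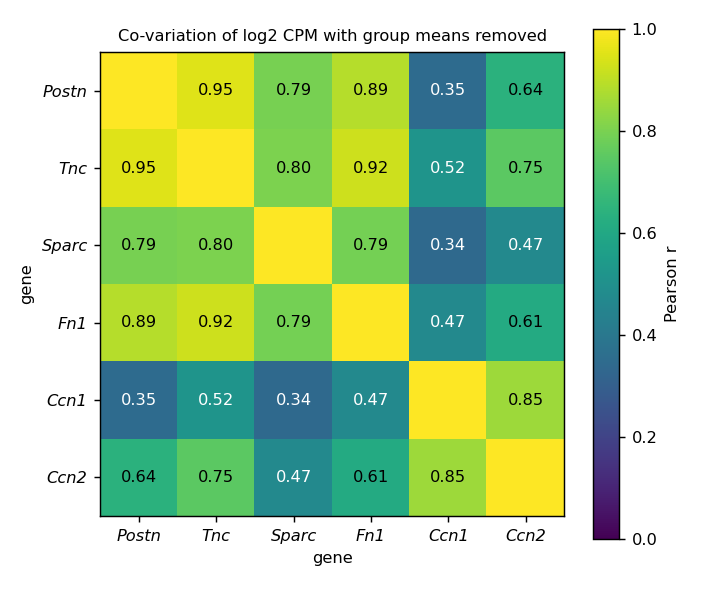
Pearson r of log2 CPM with group means removed, over 16 libraries, for each pair of genes (both axes). Postn, Tnc and Fn1 share the highest values, 0.89 to 0.95, and the row of Ccn1 is low apart from Ccn2, at 0.85.

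**Figure D4:**
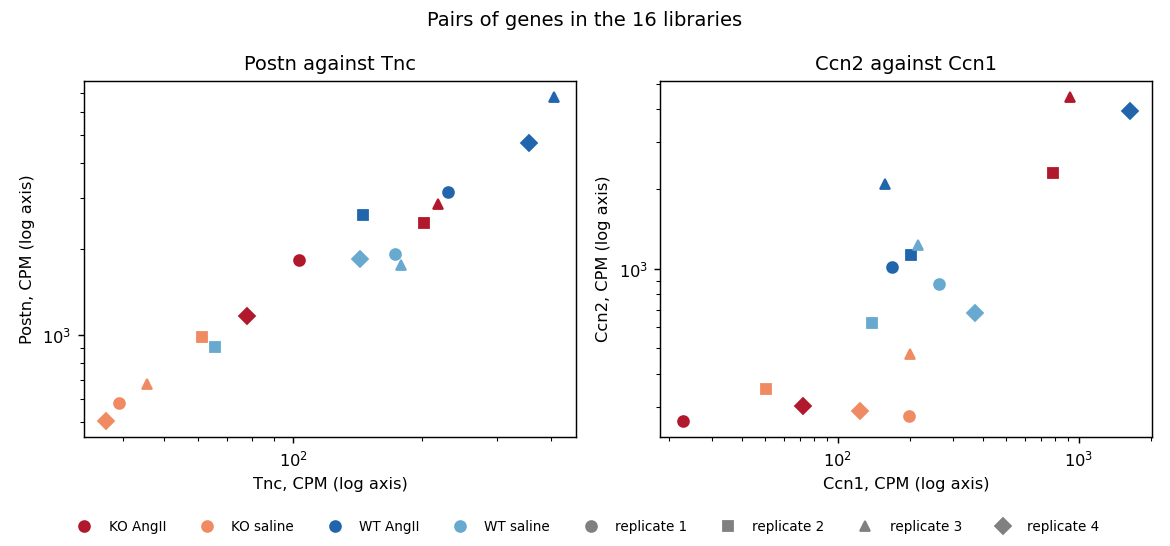
CPM on log axes of Postn (vertical) against Tnc (horizontal), left, and of Ccn2 (vertical) against Ccn1 (horizontal), right, with 1 point per library, coloured by group and shaped by replicate number. Postn and Tnc lie along a line across all groups, whereas KO AngII replicates 1 and 4 fall at the low end of the Ccn plot, at 22.7 and 72.0 CPM of Ccn1.

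The genes most like each member over the 16 libraries, by Pearson r of log2 CPM among 15976 genes with a symbol, are a description that includes the group differences. For Postn they were Anln at 0.98, Tnc at 0.98 and Fn1 at 0.97, where Anln encodes anillin, an actin-binding protein of the cleavage furrow. For Tnc they were Fn1 at 0.98, Postn at 0.98 and Anln at 0.97, and for Fn1 they were Tnc, Anln and Postn, at 0.98, 0.98 and 0.97. Sparc was most like Eln, the elastin gene, at 0.97, C1qtnf6 at 0.97 and Kdelr3, an endoplasmic reticulum retrieval receptor, at 0.96. Eln ranged from 2007 to 4186 CPM in KO AngII and 1231 to 1876 CPM in KO saline, against 10112 to 23345 CPM in WT AngII and 2556 to 8919 CPM in WT saline. Among the genes most like Sparc, Tnc, Postn and Fn1 held ranks 143, 152 and 186.

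Ccn1 was most like Dusp1 at 0.94, a phosphatase induced by stress, Atf3 at 0.93, a stress-induced transcription factor, and Otud1 at 0.91. Ccn2 was most like Tnfrsf12a at 0.98, the receptor of the cytokine TWEAK, Abra at 0.96, an activator of serum response factor signalling, and Itga5 at 0.95, the alpha subunit of the fibronectin receptor. Atf3 was at 3.29, 82.1, 269 and 8.90 CPM in KO AngII replicates 1 to 4, against 32.9, 7.30, 30.4 and 8.46 CPM in KO saline. It was at 11.7, 25.1, 7.55 and 347 CPM in WT AngII, against 45.2, 32.6, 50.5 and 32.7 CPM in WT saline. These levels illustrate the likeness by which Atf3 was chosen and are no separate result. Abra was at 1.75, 30.5, 36.2 and 2.68 CPM in KO AngII, against 1.16, 3.00, 4.64 and 2.53 CPM in KO saline. Among the genes most like Ccn2, Tnc held rank 62 (r = 0.84) and Ccn1 rank 98 (r = 0.81).

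**Figure D5:**
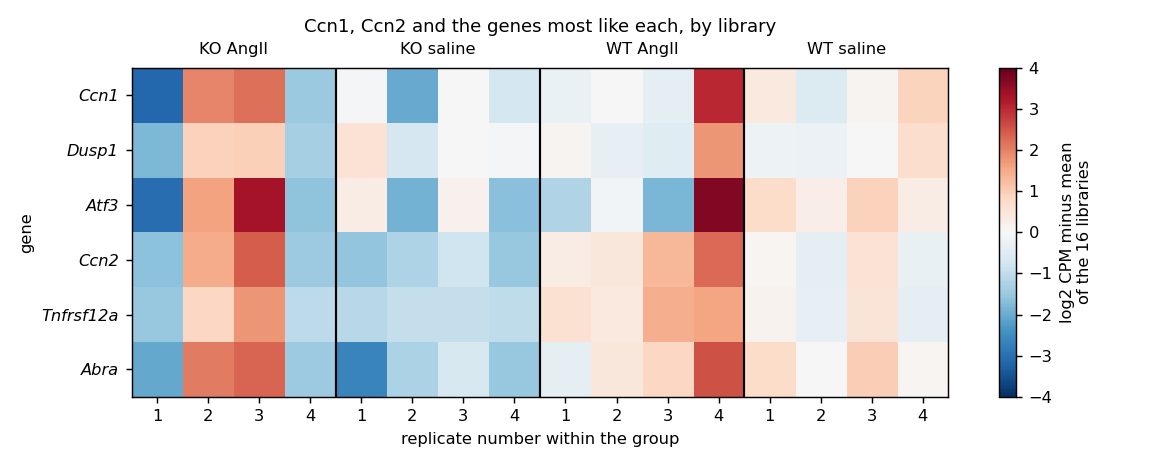
Log2 CPM less the mean of the 16 libraries (colour) for Ccn1, Dusp1, Atf3, Ccn2, Tnfrsf12a and Abra (vertical) by library (horizontal, replicates 1 to 4 in each group). KO AngII replicates 2 and 3 and WT AngII replicate 4 are red for all 6 genes, and KO AngII replicates 1 and 4 are blue for all 6.

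Lists of related genes gave few calls, each read by edgeR in the average AngII effect, where 0.857% of all genes were called higher and 15.1% had an unadjusted p under 0.05. The lists too were chosen with earlier results of these data known, so these shares are a scale and do not test a list. Among other members of the same protein families, 1 of 14 tested rose, Ccn5 at 1.26 ± 0.26 (adjusted p = 0.0351), a CCN protein without the C-terminal module, 5 had an unadjusted p under 0.05, and the list median was 0.38. Of 11 integrin and syndecan receptors none was called and 3 had an unadjusted p under 0.05, with Itga5 at 1.15 ± 0.34 (0.124) and Itgav at 0.32 ± 0.12 (0.232). Of 18 regulators none was called either and 4 had an unadjusted p under 0.05, with Tgfb2, a TGF-beta ligand, at 1.25 ± 0.32 (0.0793) and Tgfbr1, its receptor, at 0.58 ± 0.18 (0.154). Of 17 other YAP/TEAD targets, Ankrd1, a nuclear and sarcomeric ankyrin-repeat protein, rose by 2.27 ± 0.42 (0.0202), 3 had an unadjusted p under 0.05, and the list median was 0.10. Of 17 other TGF-beta targets 12 had an unadjusted p under 0.05 and 2 were called higher, among them Ltbp2, a latent TGF-beta binding protein relative, which rose by 0.74 ± 0.16 (0.0393), and all 17 were above 0 with a median of 0.72. Of 17 immediate early genes none was called and 2 had an unadjusted p under 0.05, with Ier3 at 1.02 ± 0.43 (0.281) and Egr2 at 0.90 ± 0.42 (0.329). Leaving out single libraries ended the Ccn5 call in 11 of 16 fits, the Ltbp2 call in 12, and the Ankrd1 call without KO saline replicate 4 or WT AngII replicate 3 or 4, with adjusted p of at most 0.0992. DESeq2 and voom called Itga5 and Tgfb2 higher, and voom called Tgfbr1, where they called 463 and 314 of all genes higher.

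In KO against WT the calls in the related lists were all lower in KO. Under AngII, where 1.03% of all genes were called lower, this held for 4 of 17 other TGF-beta targets: the collagen genes Col1a1 at -1.65 ± 0.41 (adjusted p = 0.0499 by edgeR), Col1a2 at -1.36 ± 0.32 (0.0458) and Col5a1 at -1.29 ± 0.31 (0.0483), and Lox, lysyl oxidase, at -2.01 ± 0.39 (0.0155). No receptor, family relative, regulator, YAP/TEAD target or immediate early gene was called there. Under saline, where 1.78% of all genes were called lower, 2 of 11 receptors were, Itgb3 at -1.92 ± 0.30 (0.00356) and Itga9 at -1.41 ± 0.34 (0.0413), subunits of integrins that bind periostin, tenascin-C or fibronectin. Also lower were 2 of 17 other TGF-beta targets, Col5a1 and Pmepa1, and 1 of 17 other YAP/TEAD targets, Arhgef17. The genes of these 9 calls were named after their values were seen.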

How the data were processed

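Per the labels, poly-A RNA of suprarenal aorta was sequenced in 16 libraries. The deposited values are raw read counts per gene, which were not normalized, and the submitters' processing notes list HISAT2 2.0.5, then featureCounts 1.5.0-p3, with DESeq2 1.20.0 and the build GRCm39. The sources used here give neither annotation nor strand setting.

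Group and replicate came from the sample titles. Genes were filtered with edgeR's filterByExpr, which kept 15984 genes, and scaled by TMM. Differences were tested with edgeR 4.0.16 under R 4.3.3 (quasi-likelihood F test) in 1 fit of the 16 libraries with a mean per group, two-sided, Benjamini-Hochberg adjusted over all genes, with a call at 0.05. The SE is the absolute log2 fold change divided by the square root of F. Alternatives included RLE scaling, filters, DESeq2 1.42.0, limma voom (limma 3.58.1), a replicate block and each library left out. Tests were checked on simulated counts. The reference was GRCm38 (GENCODE M21 exon lengths, RefSeq promoters).

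The 6 genes and the gene lists were chosen with earlier results of these data known. Named genes were the 6, Vamp8, Agtr1a, from each related list up to 4 genes called in the average AngII effect, or else the 2 with the smallest p, and the 3 genes most like each of the 6; 1 gene that this rule names is not reported here. Agtr1a, the AngII receptor, was not called in the average effect (log2 fold change 0.91 ± 0.45, adjusted p = 0.365) and reached 49.6 CPM in KO AngII replicate 4. The labels do not say whether replicates shared a cage or day, so this could not be taken into account. The tests treat libraries as independent and judge group differences against the spread between libraries within groups.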

Additional observations from a re-analysis of the deposited data

Results flagged for a closer look

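Of the 24 sets of 4 libraries examined, 6 genes in 4 groups, Ccn1 in WT AngII held a single distant value. WT AngII replicate 4 was at 1632.85 CPM and the next library at 200.9 CPM, a gap of 0.970 of the whole range, against a critical value of 0.829. If values are normally distributed, chance passes the critical value in about 1 of 20 sets, and 24 were examined. Whether CPM values follow that distribution was not tested. Dusp1 and Atf3 were highest in that library within WT AngII, at 486 and 347 CPM. They were chosen for their likeness to Ccn1 over these libraries, so this is no separate result. The macrophage marker sum was also highest there, at 1029 CPM. The part of any of these in the Ccn1 value was not tested.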

How the results depend on the processing

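Of 888 alternative values of the 36 log2 fold changes of the 6 genes, 806 kept their direction and their side of the threshold, 41 lost and 26 gained a call, and 15 changed sign, none of the 15 with a call. The number of the 6 genes called was 4 by DESeq2 and 4 by voom for KO AngII against KO saline (0 in the main test), 2 by DESeq2 for WT AngII against WT saline (0), 5 by DESeq2 and 1 with the replicate block for the average AngII effect (3), 2 by DESeq2 and 0 with only the groups compared for KO AngII against WT AngII (1), and 4 by DESeq2, 4 by voom, 0 with the replicate block, 1 with only the groups compared and 1 without the 2 libraries left out together (KO AngII replicate 4 and the library labelled KO saline replicate 1) for KO saline against WT saline (2). Leaving out each library gave 1 to 4 for the average effect and 0 to 4 for KO saline against WT saline. Over all genes those fits called 42 to 252 (166 in the main test) and 105 to 1744 (481). The causes were not tested.

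Reversed values in KO AngII against WT AngII were, for Ccn1, 0.54 by voom, 0.22 with the replicate block, 0.093 without these 2 libraries and -0.91 to 1.36 with each library left out, and for Ccn2 0.16 by voom, 0.20 without the 2 libraries and -1.12 to 0.38 with each left out. Leaving out each library moved Ccn1 in WT AngII against WT saline between -0.49 and 1.43, the Postn interaction between -0.038 and 0.48 and the Ccn1 interaction between -0.12 and 2.15. With each library left out, r ran from 0.52 to 0.71 for Postn and Ccn2, 0.68 to 0.83 for Sparc and Fn1, 0.22 to 0.52 for Sparc and Ccn1, 0.39 to 0.53 for Sparc and Ccn2, 0.38 to 0.58 for Fn1 and Ccn1, 0.57 to 0.72 for Fn1 and Ccn2, and 0.79 to 0.89 for Ccn1 and Ccn2, and some of these fits changed the call.

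Over all genes, edgeR, DESeq2 and voom, in that order, called 166, 666 and 549 in the average effect, 8, 734 and 561 in KO, 71, 280 and 254 in WT, 3, 104 and 173 in the interaction, 324, 1230 and 580 in KO AngII against WT AngII, and 481, 1362 and 3197 in KO saline against WT saline. The labels do not say whether libraries with the same replicate number share anything else. Of 24 same-numbered pairs 10 had a correlation of deviations over 0.1 over 5000 genes, from -0.66 to 0.70. Pairs with different numbers were not computed, so these values cannot decide it. The block left 120 genes called in the average effect, 14 in KO, 42 in WT, 3 in the interaction, 166 in KO AngII against WT AngII and 394 in KO saline against WT saline. The printed intervals are those of single tests and are not adjusted. An interval above 0 and no call can therefore stand together. Ccn2 in the average effect had an interval of 0.73 to 2.92 and an adjusted p of 0.109 by edgeR.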
